A study of Homo sapiens with 16 samples.

Results

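Of the 42351 genes in the deposited count table, 30 carry a symbol made of LINC or SNHG and a number, and 9 of these were chosen by their counts, at least 160 summed over the 16 libraries. These 9 genes, all named LINC, are: LINC02210, LINC01347, LINC00680, LINC00888, LINC01881, LINC00431, LINC00674, LINC00672 and LINC01145. The other 21 matching genes held fewer counts, 6 of them none, and 0 genes of the table carried an SNHG symbol. Only 31 of the 42351 genes are typed as lncRNA (long noncoding RNA) in GENCODE release 44. The absence of a gene from the table therefore does not show that it is not expressed. The libraries are polyA RNA of lung cancer cells without HGF (0 h) and after 3, 6 or 12 h of hepatocyte growth factor (HGF), the ligand of the receptor MET, with 2 replicates per condition. The labels give 12 h without serum before HGF in every group, whereas the methods of the study give a longer time. Cells expressing wt MET are A549 in the labels, and cells expressing MET∆14, a MET that lacks the part encoded by exon 14, are NCI-H596. Each form of MET is therefore represented by 1 cell line, so the form of MET and the line cannot be told apart, and no untreated cells were collected at 3, 6 or 12 h.

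LINC symbols are placeholder names for long intergenic noncoding RNA genes, transcripts that lie between coding genes and hold no recognised protein. Many loci first named in this way carry copies of parts of coding genes. An unprocessed pseudogene is a duplicated piece of a gene that kept its exon structure, a unitary pseudogene is a former coding gene with no working copy left, and either may still be transcribed. A small nucleolar RNA host gene carries small RNAs for ribosome assembly in its introns, and its spliced transcript is often short-lived.

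The label noncoding was not borne out for all genes by the annotation. In GENCODE release 44, 7 of the 9 identifiers in the table are transcribed unprocessed pseudogenes, LINC02210 is a transcribed unitary pseudogene, and LINC00672 is now the protein coding gene LASP1NB. For 4 of them (LINC01347, LINC00680, LINC00888 and LINC01145) the release holds a second gene of the same name typed as lncRNA at the same locus, which was not analysed here. LINC01881, LINC00431 and LINC00674 each overlap a gene typed as lncRNA that carries no LINC symbol and is absent from the count table. These genes share 91.2%, 100% and 55% of their 50-base transcript windows, respectively. RefSeq lists LINC00888 as the small nucleolar RNA host gene SNHG33. The genes are therefore called LINC-named genes below, and each value belongs to the identifier of the table.

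The transcript models differed in how far their sequence is their own. Every 50-base window of a gene's GENCODE transcripts was looked up in the transcripts of all genes that do not overlap it. LINC01347 (ENSG00000214837, chr1:243087710-243097299, minus strand, hg38) shared 67.3% of its 306 windows with 25 genes elsewhere, among them pseudogenes of GTF2I, which encodes a general transcription factor. LINC00431 (ENSG00000225760, chr13:110989980-110990138, plus strand) shared 60.9% of 110 windows with 1 gene, TUBGCP3, which encodes a component of the gamma-tubulin ring complex. The share was 48.9% of 94 for LINC01145 (ENSG00000272419, chr1:145214677-145215726), 33.9% of 363 for LINC01881 (ENSG00000220804, chr2:242094894-242130807) and 11.4% of 132 for LINC00680 (ENSG00000215190, chr6:57959029-57961345). It was 7.21% of 111 for LINC00674 (ENSG00000237854, chr17:68101908-68114527). LINC02210 (ENSG00000204650, chr17:45620328-45655156, plus strand) shared 3.12% of 15702, mostly with KANSL1, which encodes a subunit of a histone acetyltransferase complex. LINC00672 (ENSG00000263874, chr17:38925168-38929384, plus strand) shared 1.59% of 3643. LINC00888 (ENSG00000240024, chr3:183451741-183455335, plus strand) shared 0 of 372 windows with genes elsewhere. With genes that overlap at the same locus included, the share was 50% for LINC00888, 55% for LINC00674, 74.5% for LINC01347 and 91.2% for LINC01881. It was 100% for LINC00680, LINC00431 and LINC01145, 5.08% for LINC02210 and 1.59% for LINC00672. How the authors assigned reads that match several genes is not given in the sources used here, so values of the genes with large shares are uncertain.

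**Figure D1:**
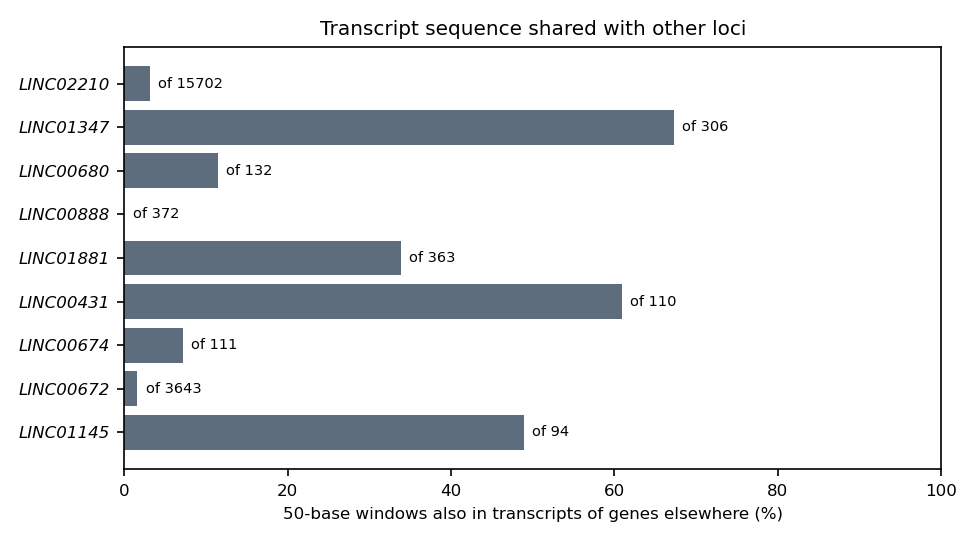
Percentage of the 50-base windows of each LINC-named gene's transcripts (x axis) that also occur in transcripts of genes elsewhere, with the number of windows beside each bar. LINC01347 stands at 67.3% and LINC00431 at 60.9%, while LINC00888 stands at 0. Genes that overlap at the same locus are left out.

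The transcript models at both ends of this range are printed here, since they set how the counts of LINC01347, LINC00431 and LINC00888 can be read. They are GENCODE 44 models on hg38, 5′ to 3′, and capitals mark bases inside a window shared with a gene elsewhere. The model of LINC00431 is 159 bases long, with 116 in shared windows. The first 300 of the 355 bases of LINC01347 hold 298 in shared windows, and the first 300 of the 421 bases of LINC00888 hold 0.
LINC00431: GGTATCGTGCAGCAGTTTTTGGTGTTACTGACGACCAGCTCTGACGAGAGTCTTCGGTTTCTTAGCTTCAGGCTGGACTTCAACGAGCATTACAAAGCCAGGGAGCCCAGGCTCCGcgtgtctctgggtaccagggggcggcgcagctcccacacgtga
LINC01347: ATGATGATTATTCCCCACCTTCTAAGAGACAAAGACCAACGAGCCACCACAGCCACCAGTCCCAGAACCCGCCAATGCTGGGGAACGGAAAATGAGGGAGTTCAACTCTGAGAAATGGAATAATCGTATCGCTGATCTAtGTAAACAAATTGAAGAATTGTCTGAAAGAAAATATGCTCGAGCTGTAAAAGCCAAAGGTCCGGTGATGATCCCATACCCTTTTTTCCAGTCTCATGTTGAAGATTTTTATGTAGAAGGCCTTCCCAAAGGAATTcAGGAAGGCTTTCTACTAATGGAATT
LINC00888: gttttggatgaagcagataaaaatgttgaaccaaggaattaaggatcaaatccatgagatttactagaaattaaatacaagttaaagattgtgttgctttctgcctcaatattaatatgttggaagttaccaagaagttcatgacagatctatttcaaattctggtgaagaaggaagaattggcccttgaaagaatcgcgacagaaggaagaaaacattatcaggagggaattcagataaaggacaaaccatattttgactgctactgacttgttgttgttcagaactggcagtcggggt

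RefSeq (GRCh38.p14) gave promoters for 5 of the 9 genes, in 7 windows of 250 bases before and 50 after a start. Those of 3 genes that were lower in MET∆14 cells after 6 h of HGF are shown, since the report returns to them, with the CCAAT box (CCAAT, or ATTGG on the other strand) in capitals. They lie at chr17:45620079-45620378 (LINC02210, plus strand), chr3:183447358-183447657 (LINC00888, as SNHG33, plus strand) and chr17:38925364-38925663 (LINC00672, as LASP1NB, plus strand). The SNHG33 window spans the start (chr3:183447582) of the second gene named LINC00888, which has no counts here. It lies upstream of the counted identifier, which starts at chr3:183451741. The LASP1NB window lies inside the counted identifier of LINC00672, downstream of its GENCODE start at chr17:38925168.
LINC02210: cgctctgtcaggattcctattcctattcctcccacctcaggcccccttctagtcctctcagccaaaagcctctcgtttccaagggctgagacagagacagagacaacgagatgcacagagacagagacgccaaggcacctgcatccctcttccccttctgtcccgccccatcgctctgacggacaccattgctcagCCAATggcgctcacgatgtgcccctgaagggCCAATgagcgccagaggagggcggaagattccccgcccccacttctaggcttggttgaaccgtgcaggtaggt
LINC00888: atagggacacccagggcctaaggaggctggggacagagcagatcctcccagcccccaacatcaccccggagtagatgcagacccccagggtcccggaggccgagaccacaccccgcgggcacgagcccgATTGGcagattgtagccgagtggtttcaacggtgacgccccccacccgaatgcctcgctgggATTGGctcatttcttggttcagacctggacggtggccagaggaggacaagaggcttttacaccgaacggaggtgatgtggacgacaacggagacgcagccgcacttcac
LINC00672: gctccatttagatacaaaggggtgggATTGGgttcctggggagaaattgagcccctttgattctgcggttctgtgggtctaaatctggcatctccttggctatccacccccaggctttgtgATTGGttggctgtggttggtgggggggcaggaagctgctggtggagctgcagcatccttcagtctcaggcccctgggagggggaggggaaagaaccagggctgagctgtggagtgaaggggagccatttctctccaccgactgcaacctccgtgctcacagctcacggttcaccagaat
Each of the printed windows held 2 CCAAT boxes, as did the other window of LINC00888, while the other window of LINC02210 and those of LINC00674 and LINC01145 held 0. Of 35116 RefSeq promoters of the same length, 34.6% held at least 1, and the share with 2 was not counted. LINC01347, also lower in MET∆14 cells at 6 h, had no RefSeq promoter. A link between the box and the fall was not tested. The GC box (GGGCGG, in 45% of promoters) occurred 3 times in the printed window of LINC02210, 3 times in that of LINC01145, once in the other window of LINC02210 and in that of LINC00674, and 0 times in those of LINC00888 and LINC00672. The AP-1 site (TGANTCA, in 7.71% of promoters), the CRE (TGACGTCA, 1.85%), the E-box (CACGTG, 7.26%) and an ETS site (CCGGAAG, 10.3%), searched on both strands, were not among the letters of any of the 7 windows.

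Total counts per library ranged from 10158590 to 23909304, and the 9 genes together held 215 to 1144 counts per library, 9599 in all. CDKN2A, which is deleted in A549, had 0 counts in every wt MET library and 1466 to 3464 in MET∆14 libraries, while MTAP beside it had 5 to 23 against 883 to 3141. The 3 squamous markers (KRT5, KRT6A and TP63) summed to 2387 to 3127 CPM (counts scaled to library size) in MET∆14 cells and 0.509 to 2.61 CPM in wt MET cells, and KRT5 had 1 to 3 counts in the latter. The 3 epithelial markers (KRT8, KRT18, EPCAM) summed to 1630 to 2473 CPM in wt MET and 1050 to 1598 CPM in MET∆14 cells. KRT18 held 18528 to 25455 counts per library in wt MET and 5496 to 16363 in MET∆14 cells. KRT8 held 8515 to 13697 against 8461 to 21108. EPCAM went the other way from the sum, with 13 to 42 counts in wt MET and 295 to 739 in MET∆14 cells. Of the other marker lists of 3 genes, the leukocyte list summed to 32.8 to 40.2 CPM in wt MET and 114 to 168 CPM in MET∆14 cells, with PTPRC and CD3E at 0 in the former and at most 2 counts in the latter. The endothelial list reached at most 1.75 and 2.19 CPM. The fibroblast list summed to 11.5 to 17.9 CPM in wt MET and 191 to 376 CPM in MET∆14 cells, where COL3A1 held 2273 to 7657 counts and PDGFRB 0 to 2. The part of these lists in the results was not tested. These are bulk libraries, so fewer cells carrying a transcript and less of it per cell cannot be told apart. The p-values measure only spread between replicate libraries. That spread is 1 estimate per gene over all 16 libraries, not that of the 2 libraries of a condition alone.

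The counts that chose the genes are sums over both lines, so the levels by line are given as a description. In 6 of the 9 genes the 8 wt MET libraries and the 8 MET∆14 libraries did not overlap in CPM, all 6 with the higher level in wt MET cells. Over all 15067 genes tested the lines did not overlap for 62.2%, and for 30.5% with wt MET higher. The 6 genes were LINC02210, LINC01347, LINC00888, LINC01881, LINC00431 and LINC00674. The libraries overlapped for LINC00680, LINC00672 and LINC01145.

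LINC02210 ranged from 17.3 to 22.2 CPM in wt MET cells (median 19.9) and from 4.49 to 9.34 CPM in MET∆14 cells (median 6.64). LINC01347 ranged from 8.70 to 16.3 CPM (median 12.7) and from 0.674 to 2.68 CPM (median 1.22), respectively. LINC00888 ranged from 5.002 to 7.88 CPM (median 6.72) and from 1.24 to 2.80 CPM (median 1.95). For these 3 genes the lowest wt MET library was above the highest MET∆14 library at every time. LINC00431 ranged from 1.88 to 5.18 CPM in wt MET cells (median 3.25) and from 0 to 0.570 CPM in MET∆14 cells (median 0.184), and 94.5% of its counts came from wt MET libraries. LINC00674 ranged from 1.47 to 3.26 CPM (median 2.31) against 0.456 to 1.22 CPM (median 0.639). LINC01881 ranged from 1.77 to 3.57 CPM (median 2.36) against 0.898 to 1.76 CPM (median 1.42), so its lines were separated by the smallest gap of the 6. LINC00680 was alike in range, with 5.25 to 7.26 CPM in wt MET (median 6.32) and 5.15 to 8.27 CPM in MET∆14 cells (median 6.96). LINC00672, with 32.3% of its counts from wt MET libraries, ranged from 0.674 to 2.35 CPM (median 1.33) in MET∆14 cells, against 0.401 to 1.20 CPM (median 0.737) in wt MET cells. LINC01145 ranged from 0.467 to 1.35 CPM (median 0.608) against 0.407 to 1.42 CPM (median 0.745).

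Levels of different genes were set beside each other only per kilobase of the longest GENCODE 44 transcript, which need not be the model that was counted. At 0 h, LINC00680 had the highest level in both lines, 33.4 CPM per kb in wt MET and 36.0 CPM per kb in MET∆14 cells. In wt MET cells it was followed by LINC01347 (25.5 CPM per kb), LINC00888 (16.8), LINC00674 (16.8) and LINC00431 (14.4). The values of LINC00888 and LINC00674 lay within the spread of their 2 libraries. In MET∆14 cells LINC00888 (6.28 CPM per kb), LINC01145 (5.97), LINC01347 (5.71) and LINC00674 (5.15) followed LINC00680, again within the spread of their libraries, and LINC00431 was lowest at 0.156. Without the length, LINC02210 had the highest CPM in both lines, and with its 9678 bases it was at 2.11 and 0.954 CPM per kb.

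**Figure D2:**
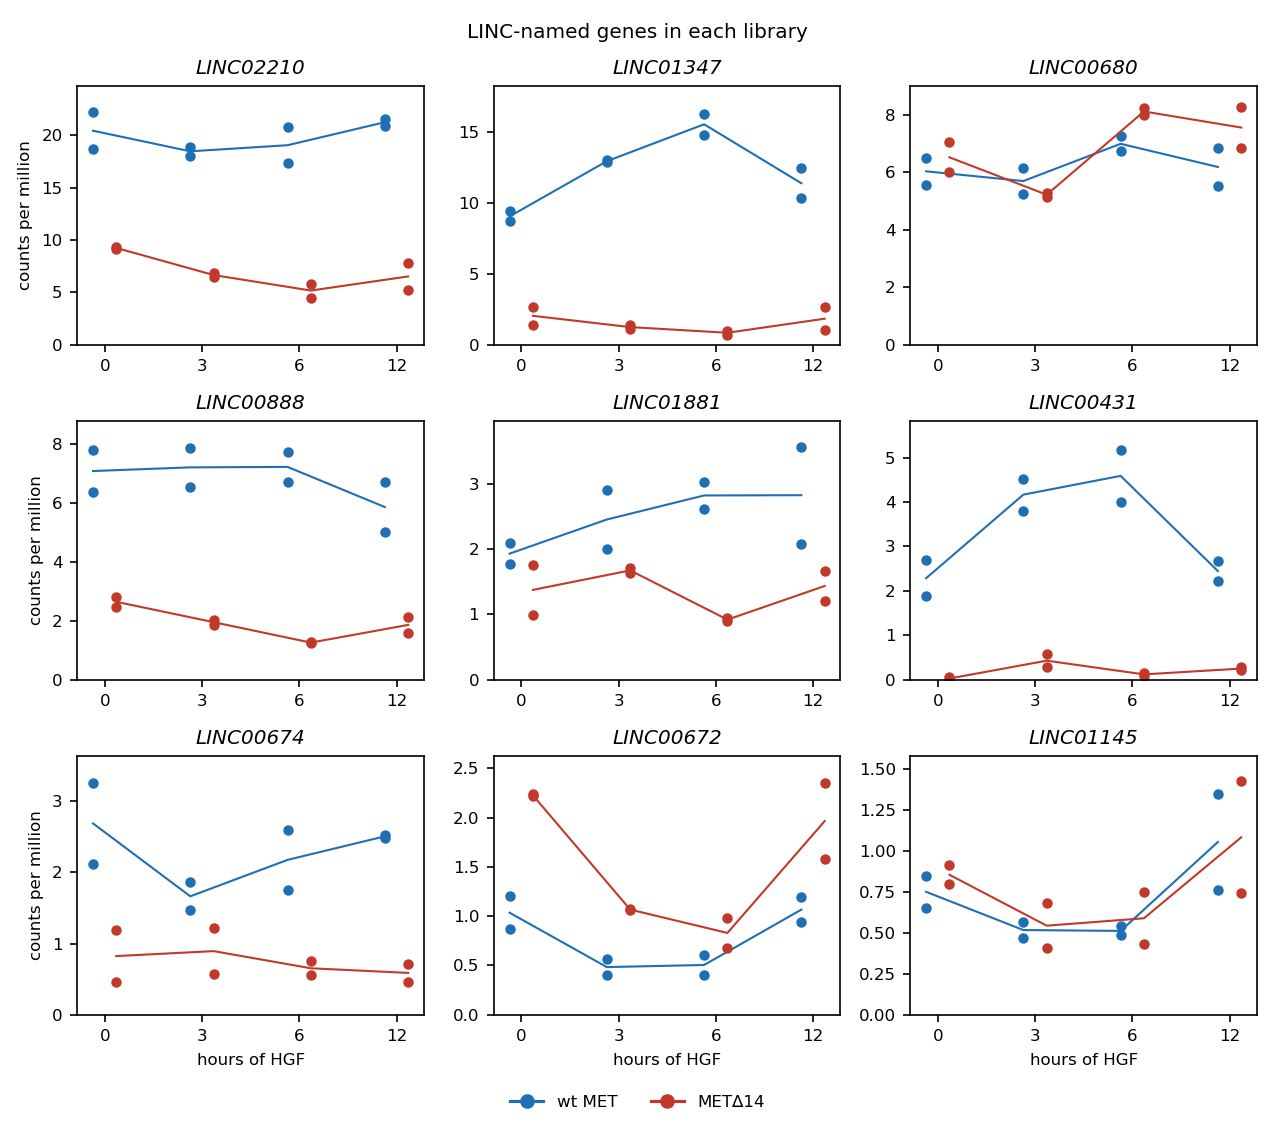
CPM (y axis, from 0, with a scale of its own in each panel) of the 9 LINC-named genes against hours of HGF (x axis, equally spaced) in wt MET (blue) and MET∆14 (red) cells. Points are libraries, 2 per condition, and lines join their means. In 6 panels the lines do not overlap, and the LINC00672 libraries at 3 and 6 h lie below those at 0 h in both.

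The comparison of each time with 0 h asked which genes respond to HGF in each line. All 9 genes passed the filter on low counts. All 15067 genes were tested by quasi-likelihood in edgeR, p-values were adjusted after Benjamini and Hochberg, and a gene was called at an adjusted p under 0.05. In wt MET cells 0 of the 9 genes were called at 3 h (17.4% of all genes; 2 at an unadjusted p under 0.05, and 0 in DESeq2). At 6 h 2 were called (34.2%), both higher (16.4% of all genes were higher), and at 12 h 0 were called (35.1%; 0 at an unadjusted p under 0.05, and 0 in DESeq2). In MET∆14 cells 2 were called at 3 h (31.7%), 1 higher and 1 lower. At 6 h 4 were called (44.1%), all 4 lower (22.5% of all genes were lower), and at 12 h 1 was called (38.3%). The F test over the 3 times called 2 of 9 in wt MET (40.3%) and 6 of 9 in MET∆14 cells (54.1%), counts near those that these shares give among 9 genes. The median log2 fold change of the 9 genes in MET∆14 cells was -0.44 at 3 h, -0.60 at 6 h and -0.08 at 12 h, against -0.05, -0.04 and -0.02 for all genes. In wt MET cells it was -0.08, 0.03 and 0.06, against -0.04, -0.05 and -0.0019 for all genes. Since 8 of the 9 are transcribed pseudogenes, the 310 other transcribed pseudogenes with at least 160 counts were set beside them after the data were seen. The 310 include genes that share windows with LINC01347. Of those, GTF2IP20, GTF2IP13, AL133216.2 and FAM157B were called lower in MET∆14 cells at 6 h. In MET∆14 cells at 6 h 66 of the 310 were called lower (22.5% of all genes were) and 14 higher (21.6%). In wt MET cells at 6 h 33 were lower (17.8% of all genes) and 40 higher (16.4%). Called in either direction at 6 h were 25.8% of them in MET∆14 cells and 23.5% in wt MET cells. For all genes these shares were 44.1% and 34.2%.

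**Figure D3:**
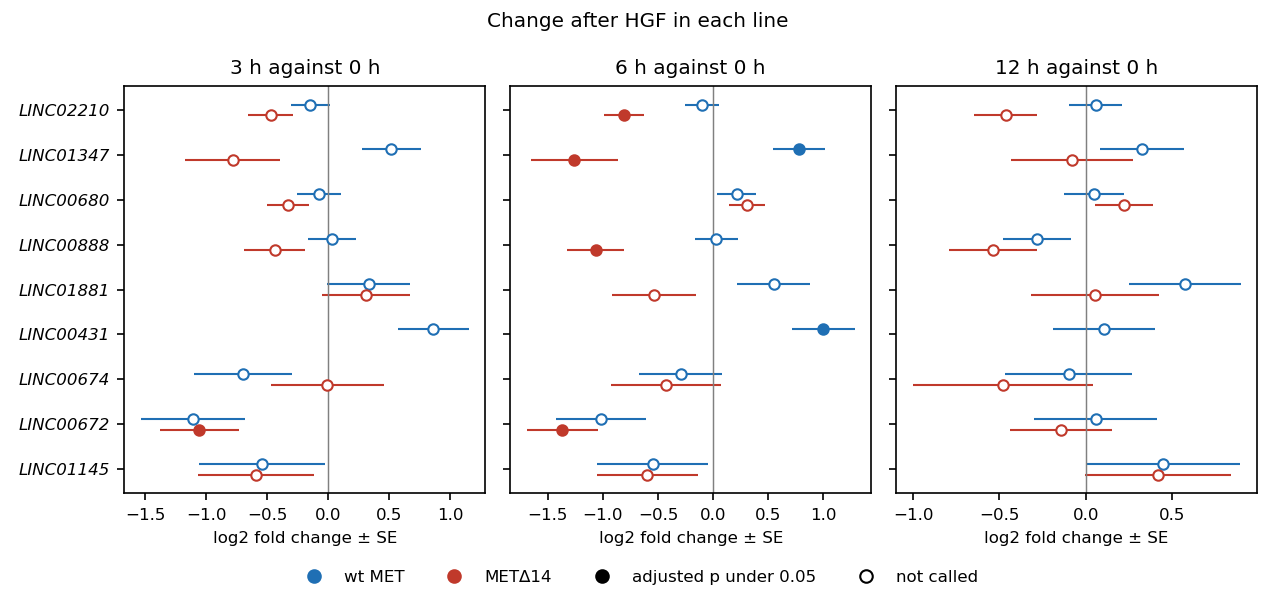
Log2 fold change against 0 h (x axis, ± SE from edgeR's quasi-likelihood test) of the 9 LINC-named genes at 3, 6 and 12 h of HGF in wt MET (blue) and MET∆14 (red) cells. Filled points passed the adjusted threshold. LINC00431 in MET∆14 cells is left out because it had 0 and 1 counts at 0 h. At 6 h 4 filled red points lie below 0 and 2 filled blue points above it.

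LINC02210, the unitary pseudogene, fell in MET∆14 cells at 6 h. Its 2 libraries read 9.13 and 9.34 CPM at 0 h, 6.43 and 6.85 at 3 h, 4.49 and 5.83 at 6 h, and 7.83 and 5.19 at 12 h. No library with HGF reached the level of those without it. The log2 fold change at 6 h was -0.81 (SE 0.182, adjusted p = 0.00209 in edgeR's quasi-likelihood test), and the call was kept under every alternative run, with adjusted p from 5.99e-05 to 0.0238. At 3 and 12 h it was -0.47 (SE 0.181, adjusted p = 0.0602 in edgeR) and -0.46 (SE 0.182, adjusted p = 0.0562 in edgeR), which were not called. Both were called in edgeR with no filter (adjusted p = 0.0437 and 0.0382) and with at least 10 counts in every library (0.0446 and 0.0423). Edger's likelihood ratio test also called both (adjusted p = 0.0355 and 0.0344). Without replicate 1 of MET∆14 cells at 12 h, the value at 12 h was -0.83 and was called (adjusted p = 0.00475 in edgeR). It was called by the F test over the times (adjusted p = 0.0105 in edgeR), but not without replicate 2 of MET∆14 cells at 0 h (adjusted p = 0.0637) or with each line fitted alone (0.0522). The wt MET libraries read 22.2 and 18.7 CPM at 0 h, 18.0 and 18.9 at 3 h, 17.3 and 20.8 at 6 h, and 21.6 and 20.9 at 12 h. These groups overlapped at every time. KANSL1, which lies on the same chromosome and shares 421 of the windows of LINC02210, also fell in MET∆14 cells, by 0.66 on the log2 scale at 3 h (adjusted p = 0.00168 in edgeR) and by 0.82 at 6 h (adjusted p = 0.000188 in edgeR). With wt MET, KANSL1 rose at 12 h (log2 fold change 0.43, adjusted p = 0.0115 in edgeR). Whether shared reads have a part in the values of LINC02210 was not tested.

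LINC00888, whose counted identifier is a pseudogene that shares no window with genes elsewhere, fell in MET∆14 cells at 6 h. It read 2.80 and 2.48 CPM at 0 h, 2.04 and 1.87 at 3 h, 1.27 and 1.24 at 6 h, and 1.59 and 2.13 at 12 h. Both libraries at 6 h, with 17 and 29 counts, were below all other MET∆14 libraries. The log2 fold change at 6 h was -1.06 (SE 0.260, adjusted p = 0.00379 in edgeR's quasi-likelihood test), called under every alternative run (adjusted p 0.00134 to 0.0387). This SE lay just below that of counting error alone (0.26005). At 3 and 12 h the values were -0.44 and -0.54 (adjusted p = 0.203 and 0.113 in edgeR), which were not called. It was also called over the times together (adjusted p = 0.0196 in edgeR). That call was lost in DESeq2 (adjusted p = 0.0528), with each line fitted alone (0.0541) and without either replicate of MET∆14 cells at 0 h (0.0875 and 0.0505) or at 6 h (0.0564 and 0.0926). The gene stayed between 5.002 and 7.88 CPM in wt MET cells, the groups overlapped at every time and no comparison was called (log2 fold changes -0.28 to 0.03). Its nearest coding neighbours within 100000 bases, MCF2L2 and KLHL6, held 43 and 1 counts in all libraries together and were not tested.

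LINC00672, the coding gene LASP1NB, fell in MET∆14 cells at 3 and 6 h. Its MET∆14 libraries read 2.22 and 2.24 CPM at 0 h, 1.06 and 1.08 at 3 h, 0.674 and 0.985 at 6 h, and 2.35 and 1.58 at 12 h. With wt MET it read 0.868 and 1.20 CPM at 0 h, 0.401 and 0.566 at 3 h, 0.605 and 0.404 at 6 h, and 1.19 and 0.942 at 12 h, from 6 to 25 counts per library. In both lines the libraries at 3 and 6 h lay below those at 0 h, and those at 12 h overlapped them. The fall in MET∆14 cells was -1.05 at 3 h (SE 0.322, adjusted p = 0.0208 in edgeR) and -1.37 at 6 h (SE 0.322, adjusted p = 0.00293 in edgeR), with -0.14 at 12 h (adjusted p = 0.764 in edgeR). The call at 6 h was kept under every alternative that gave a value (adjusted p 0.000188 to 0.0292). The call at 3 h was lost in DESeq2 (adjusted p = 0.111) and without any 1 of the 4 libraries compared (adjusted p 0.0774 to 0.103). The wt MET values were -1.11 at 3 h (SE 0.427, adjusted p = 0.0903 in edgeR) and -1.02 at 6 h (SE 0.410, adjusted p = 0.0689 in edgeR), which were not called. The difference between the lines was 0.05 at 3 h (95% interval -1.06 to 1.17) and -0.35 at 6 h (-1.60 to 0.89). In the additive model of line and time over all libraries, 2 of the 9 genes were called (30.6% of all genes). LINC00672 was called (adjusted p = 0.00138 in edgeR) under every alternative that gave a value, with adjusted p of at most 0.00542. Over the times together it was called in MET∆14 cells (adjusted p = 0.00489) and in wt MET cells (adjusted p = 0.0422 in edgeR), the latter lost in DESeq2 (0.165), with no filter (0.0843), with each line fitted alone (0.0618) and without any 1 of 13 of the 16 libraries (0.0547 to 0.142). LASP1, which encodes an actin-binding protein and ends 3398 bases away on the same strand, moved otherwise in MET∆14 cells. There it rose at 3 h (log2 fold change 0.24, adjusted p = 0.0382 in edgeR). In wt MET cells LASP1 had the same sign as LINC00672 at 3 and 6 h, with -0.24 at 3 h (adjusted p = 0.0600 in edgeR). It fell there by 0.58 on the log2 scale at 6 h (adjusted p = 9.96e-05 in edgeR). At 12 h it fell by 0.93 (adjusted p = 2.16e-06 in edgeR), where LINC00672 was at 0.06.

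LINC01347 rose in wt MET cells and fell in MET∆14 cells at 6 h. Its wt MET libraries read 9.41 and 8.70 CPM at 0 h, 12.9 and 13.0 at 3 h, 14.8 and 16.3 at 6 h, and 10.3 and 12.4 at 12 h. All wt MET libraries with HGF were above those without it. The log2 fold change was 0.52 at 3 h (SE 0.243, adjusted p = 0.166 in edgeR), 0.78 at 6 h (SE 0.239, adjusted p = 0.0200 in edgeR) and 0.33 at 12 h (SE 0.241, adjusted p = 0.323 in edgeR). The call at 6 h was lost without any 1 of the 4 libraries compared (adjusted p 0.0513 to 0.0994). Those of MET∆14 cells read 1.37 and 2.68 CPM at 0 h, 1.38 and 1.08 at 3 h, 0.674 and 0.985 at 6 h, and 2.63 and 1.02 at 12 h. The replicates lay wide apart at 0 and 12 h, and these times overlapped. The log2 fold change at 6 h was -1.26 (SE 0.395, adjusted p = 0.0172 in edgeR). Without replicate 2 at 0 h it was -0.67 (adjusted p = 0.313), and without replicate 1 at 6 h -1.08 (adjusted p = 0.0866). With each line fitted alone it was -1.23 (adjusted p = 0.0789). The F test over the times in MET∆14 cells (adjusted p = 0.0387 in edgeR) was lost with each line fitted alone (0.174) and without any 1 of 10 of the 16 libraries (0.0502 to 0.128).

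The response of LINC01347 differed between the lines. An F test of the difference over the 3 times called 2 of the 9 genes (37.6% of all genes), and for LINC01347 (adjusted p = 0.00999 in edgeR) the call was kept under every alternative that gave a value, with adjusted p of at most 0.0333. The mean difference over the times, MET∆14 minus wt MET, was -1.25 on the log2 scale. At 6 h alone the responses of 3 genes differed (30.2% of all genes), all 3 lower in MET∆14 cells (13.8% of all genes). For LINC01347 the difference at 6 h was -2.04 (SE 0.460, adjusted p = 0.00345 in edgeR), and without replicate 2 of MET∆14 cells at 0 h it was -1.47 (adjusted p = 0.0599). For LINC00888 it was -1.09 (SE 0.325, adjusted p = 0.0190 in edgeR), lost without replicate 2 of wt MET cells at 0 h or 6 h, replicate 1 of MET∆14 cells at 0 h or replicate 2 at 6 h (adjusted p 0.0506 to 0.0729). For LINC02210 it was -0.71 (SE 0.240, adjusted p = 0.0360 in edgeR), lost without any 1 of 5 libraries (0.0632 to 0.121). These were replicate 2 of wt MET cells at 0 h and 6 h, both replicates of MET∆14 cells at 0 h and replicate 1 at 6 h.

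Of the 9 tested genes that share transcript sequence with LINC01347, some also passed the test at 6 h. GTF2IP20, a GTF2I pseudogene that shares 125 of its windows, rose in wt MET cells at 6 h (log2 fold change 0.79, adjusted p = 0.0428 in edgeR). It fell in MET∆14 cells, with log2 fold changes of -1.297 at 3 h (adjusted p = 0.00681 in edgeR) and -1.09 at 6 h (adjusted p = 0.0105 in edgeR). GTF2IP13, which shares 107 windows, fell in MET∆14 cells by 1.37 at 3 h (adjusted p = 0.00432 in edgeR) and by 1.31 at 6 h (adjusted p = 0.00346 in edgeR). AL133216.2, with 41 windows, fell by 1.14 and 1.04 (adjusted p = 0.00122 and 0.00121 in edgeR). The responses of GTF2IP20, GTF2IP13 and AL133216.2 also differed between the lines at 6 h, by -1.88, -1.78 and -1.20 (adjusted p = 0.00372, 0.00633 and 0.00560 in edgeR). FAM157B, with 97 windows, was lower in MET∆14 cells at 6 h (-1.66, adjusted p = 0.0268 in edgeR). BET1L, a coding gene for a vesicle transport protein with 61 windows, was higher there (0.31, adjusted p = 0.00777 in edgeR). AL669831.1, FAM157A, GTF2IP12 and AC110079.1, with 36 to 122 windows, were not called in either line. Reads of these loci may not be separable, and their part in the counts of LINC01347 was not tested. CEP170, the coding gene 27129 bases away, which encodes a centrosomal protein, rose at all 3 times in MET∆14 cells and at 12 h in wt MET cells.

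**Figure D4:**
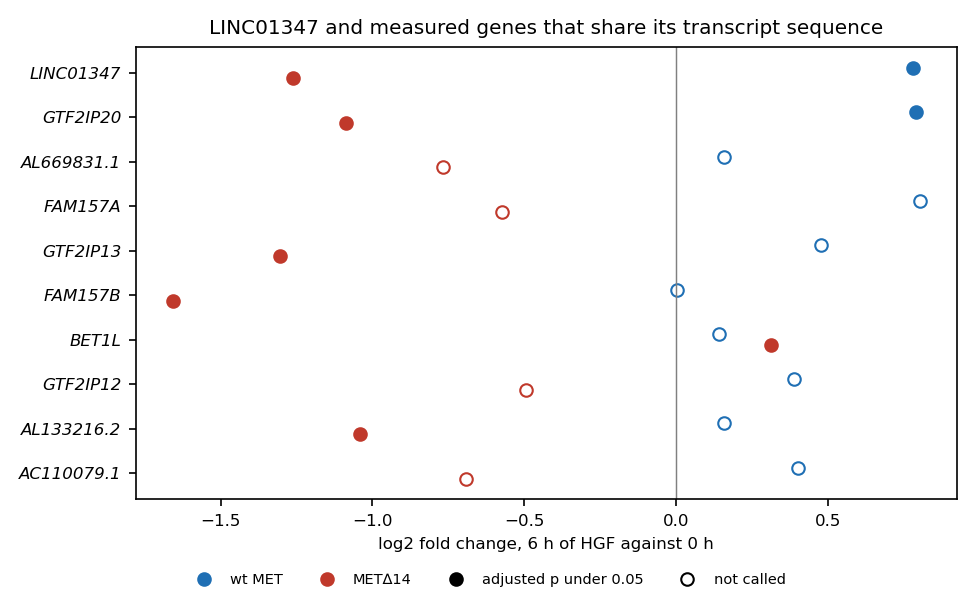
Log2 fold change at 6 h of HGF against 0 h (x axis) of LINC01347 and of the 9 tested genes that share at least 36 of its windows, in wt MET (blue) and MET∆14 (red) cells. Filled points passed the adjusted threshold of edgeR's quasi-likelihood test. LINC01347 at 0.78 and -1.26 lies beside GTF2IP20 at 0.79 and -1.09.

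LINC00431, the pseudogene that shares sequence with TUBGCP3, rose in wt MET cells at 6 h. It read 1.88 and 2.69 CPM at 0 h, 3.81 and 4.53 at 3 h, 3.99 and 5.18 at 6 h, and 2.67 and 2.22 at 12 h, from 26 to 77 counts. The libraries at 3 and 6 h were above those at 0 h, and those at 12 h overlapped them. The log2 fold change was 0.86 at 3 h (SE 0.291, adjusted p = 0.0549 in edgeR), 0.9996 at 6 h (SE 0.286, adjusted p = 0.0139 in edgeR) and 0.11 at 12 h (SE 0.298, adjusted p = 0.830 in edgeR). The call at 6 h was lost in DESeq2 (adjusted p = 0.0573), without replicate 1 at 0 h (0.77, adjusted p = 0.120) and without replicate 2 at 6 h (0.82, adjusted p = 0.119). The F test over the times (adjusted p = 0.0165 in edgeR) was lost in the same fits (0.0785, 0.0501 and 0.0639). TUBGCP3 was called in wt MET cells at 12 h alone, lower, and not at any time in MET∆14 cells. ANKRD10, the coding gene 74911 bases away on the other strand, rose in wt MET cells at 3, 6 and 12 h (log2 fold changes 0.55, 0.93 and 0.83, adjusted p = 0.00497, 3.48e-05 and 0.00011 in edgeR) and was not called in MET∆14 cells.

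LINC00431 was at the floor of 3 counts in MET∆14 cells at 0 h, with 0 and 1 counts. It had 7 and 5 counts at 3 h, 2 and 2 at 6 h, and 4 and 3 at 12 h. The ratio of the summed counts to those at 0 h, scaled by library size, was 14.2 at 3 h (95% exact interval 2.10 to 608), 3.87 at 6 h (0.383 to 190) and 8.55 at 12 h (1.10 to 385), covering counting error only. The test called it at 3 h (adjusted p = 0.00600 in edgeR) and 12 h (adjusted p = 0.0340 in edgeR), with a fitted SE below counting error at both. The call at 3 h was lost without replicate 1 at 3 h (adjusted p = 0.0549). The call at 12 h was lost in DESeq2 (adjusted p = 0.103) and without any 1 of the 4 libraries compared (0.0537 to 0.190). Its call over the times in MET∆14 cells (adjusted p = 0.0144 in edgeR) was lost without replicate 1 at 0 h (0.0569) or at 3 h (0.0670). The F test of the difference between the lines called it (adjusted p = 0.0448 in edgeR) but was lost in DESeq2 (0.0649) and without any 1 of 11 of the 16 libraries (0.0505 to 0.121).

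LINC00680, the gene with the highest level per kilobase, was called in MET∆14 cells by the F test over the times (adjusted p = 0.0244 in edgeR) and at no single time. It read 6.00 and 7.05 CPM at 0 h, 5.29 and 5.15 at 3 h, 8.23 and 8.01 at 6 h, and 8.27 and 6.86 at 12 h. The libraries at 3 h were below and those at 6 h above those at 0 h, with log2 fold changes of -0.33 (SE 0.175, adjusted p = 0.171 in edgeR) and 0.31 (SE 0.165, adjusted p = 0.146 in edgeR). The F test was lost in DESeq2 (adjusted p = 0.0701), without either replicate at 3 h (0.0911 and 0.122) and without either at 6 h (0.0645 and 0.0621). Its wt MET log2 fold changes were -0.08, 0.21 and 0.05 at 3, 6 and 12 h, none of them called. GUSBP1, a pseudogene of the gene for beta-glucuronidase, shares 15 windows with it. GUSBP1 rose in wt MET cells at 3, 6 and 12 h (0.87, 0.76 and 0.69, adjusted p = 0.00230, 0.00266 and 0.00482 in edgeR). In MET∆14 cells GUSBP1 was called at 12 h alone (0.46, adjusted p = 0.00802 in edgeR). Its part in the counts of LINC00680 was not tested.

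LINC01881, LINC00674 and LINC01145 were called at no single time in either line. The log2 fold changes of LINC01881 were 0.33, 0.55 and 0.57 in wt MET cells and 0.31, -0.54 and 0.05 in MET∆14 cells at 3, 6 and 12 h. Those of LINC00674 were -0.70, -0.30 and -0.10 in wt MET cells and -0.01, -0.43 and -0.48 in MET∆14 cells, with SE from 0.368 to 0.523. FBXO25, which shares 21 windows with LINC01881, was called lower in MET∆14 cells at 3, 6 and 12 h and in wt MET cells at 6 h. SMURF2, which shares 8 windows with LINC00674, was called higher in both lines at 3, 6 and 12 h. LINC01145 was below its 0 h libraries at 3 and 6 h in both lines, by log2 fold changes of -0.54 and -0.55 in wt MET cells and -0.59 and -0.60 in MET∆14 cells (SE 0.459 to 0.517), from 5 to 12 counts per library at these times. The additive model called LINC01145 (adjusted p = 0.0360 in edgeR), but not in DESeq2 (0.0723), with no filter (0.115) or without any 1 of 11 of the 16 libraries (0.0511 to 0.124).

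The threshold of 160 counts had LINC01145 with 188 counts, LINC00672 with 300 and LINC00674 with 376 just inside. Just outside were LINC00869 with 112 counts, LINC00475 with 61 and LINC00643 with 61. LINC00869 had 7 to 27 counts in each wt MET library and 0 to 3 in each MET∆14 library. LINC00643 had 24 and 9 of its counts in MET∆14 cells at 12 h.

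Related genes outside the set were taken from written lists. Of 5 small nucleolar RNA host genes with other names, the count table held 1, TAF1D, which also encodes a subunit of an RNA polymerase I factor. It rose in MET∆14 cells, where LINC00888 fell, with log2 fold changes of 0.68, 0.68 and 0.53 at 3, 6 and 12 h (adjusted p = 0.000258, 0.000156 and 0.00159 in edgeR), and was not called in wt MET cells. Of 20 other long noncoding RNA genes, the count table held 1, TUG1. It rose in wt MET cells at 6 h (0.34, adjusted p = 0.0269 in edgeR) and 12 h (0.32, adjusted p = 0.0322 in edgeR). The F test over the times did not call TUG1 in wt MET cells (adjusted p = 0.0536 in edgeR), and no time was called in MET∆14 cells. Its difference between the lines was not called at 6 h (adjusted p = 0.136 in edgeR) or over the times (adjusted p = 0.350 in edgeR). Factors of nonsense-mediated decay, which degrades many spliced host gene transcripts, were measured for 8 of 8 genes. In MET∆14 cells 2 were called higher at 3 h (15.5% of all genes were), 4 at 6 h (21.6%) and 4 at 12 h (18.3%), with 0 lower. With wt MET 1 was higher at 3 h (10.3%), 2 were higher and 1 lower at 6 h (17.8% of all genes were lower), and 1 was lower at 12 h (18.2%). Of 79 ribosomal protein genes tested, 13 were called higher and 0 lower in MET∆14 cells at 6 h, a smaller share than the 21.6% of all genes, with a median log2 fold change of 0.24 against -0.04 for all genes. With wt MET 0 of them were higher and 4 lower at 6 h.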

How the data were processed

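Poly(A) RNA of wt MET (A549 in the labels) and MET∆14 (NCI-H596) cells was sequenced at 0, 3, 6 and 12 h of HGF in 2 replicates each. The authors deposited raw, whole-number read counts per gene. The submitters' processing notes name STAR 2.5.0, RSEM 1.3.2 and hg38. The study trimmed adapters and aligned reads with STAR to the Ensembl assembly of hg38. The part of RSEM, the annotation release and whether counting used strand are not given in the sources used here. All columns were assigned to samples (0 without one).

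Analysis used edgeR 4.0.16 in R 4.3.3. Genes were kept by filterByExpr (minimum count 10, minimum total 15), scaled by TMM and fitted with a robust quasi-likelihood model with 1 coefficient per condition over all 16 libraries. The 3 times were each set against 0 h within a line, and F tests covered any time and the difference between the lines. An additive model of line and time followed the study's design. Benjamini-Hochberg adjustment ran over all 15067 genes, with a threshold of 0.05. CPM use TMM-scaled library sizes. Total counts of 10158590 to 23909304 per library set the precision, and intervals and the floor of 3 counts cover counting error only. Gene models came from GENCODE 44 and promoters from RefSeq.

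The genes, all of which are named, were chosen by symbol and a total of at least 160 counts. Related genes were taken from lists of small nucleolar RNA hosts, other long noncoding RNAs, decay factors, ribosomal proteins and cell type markers. A further 8 LINC genes fixed by name could not be analysed, since the count table holds 0 of them. The members and lists were chosen with earlier results of these data known. Alternatives were DESeq2 1.42.0, its size factors in edgeR, other filters, a replicate block, each line fitted alone and each library left out. The likelihood ratio test of edgeR, the shared windows and neighbours, and the comparison with other pseudogenes were added after the data were seen. The scripts were tested on simulated data.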

Additional observations from a re-analysis of the deposited data

Results flagged for a closer look

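The difference between the lines in the response to HGF was tested in 2 forms. The F test of edgeR's quasi-likelihood fit over the 3 times called 2 genes (37.6% of all genes), LINC01347 (adjusted p = 0.00999) and LINC00431 (adjusted p = 0.0448). At 6 h alone 3 were called (30.2% of all genes): LINC01347 (adjusted p = 0.00345 in edgeR), LINC00888 (adjusted p = 0.0190 in edgeR) and LINC02210 (adjusted p = 0.0360 in edgeR). The F test of LINC01347 was kept under every alternative that gave a value, and each of the other calls was lost when some single library was left out. LINC00431 had 0 and 1 counts in MET∆14 cells at 0 h, its fitted SE there was below counting error at 3 and 12 h, and its call was kept in 8 of 21 alternatives, so it is no firm difference and its size is not given.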

How the results depend on the processing

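Of 24 single-gene comparisons called in edgeR's quasi-likelihood fit, 6 were called under every alternative that gave a value. They were LINC02210, LINC00888 and LINC00672 in MET∆14 cells at 6 h, LINC00672 over all times in MET∆14 cells and in the additive model, and LINC01347 in the F test of the difference between the lines. Of 75 comparisons not called, 10 were called under at least 1 alternative. Where neither fit made a call the sign differed in 81 of 1620 cases. The mean log2 fold change of LINC00680 over the times in MET∆14 cells turned from 0.067 to -0.046 without replicate 1 of MET∆14 cells at 0 h, and reached 0.19 without replicate 2.

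Counts of called genes that moved by more than 1.5 times were as follows. DESeq2 called 1 gene in wt MET cells at 6 h, 1 and 0 in MET∆14 cells at 3 and 12 h, 0 at any time in wt MET cells and 1 in the difference between the lines. Without a filter 2 were called in wt MET cells at 3 h, and 4 and 2 in MET∆14 cells at 3 and 12 h. At least 10 counts in every library left 4 of the 9 genes, with 0 called in wt MET cells at 6 h, 1 and 2 in MET∆14 cells at 3 and 6 h, 0 and 3 at any time in wt MET and MET∆14 cells, 1 in the difference and 0 in the additive model. Each line alone gave 2 in wt MET cells at 3 h, and 1, 0 and 2 in MET∆14 cells at 3 h, at 12 h and at any time. The likelihood ratio test, added after the data were seen, gave 1 in wt MET cells at 3 h, 2 in MET∆14 cells at 12 h and 4 in the additive model. Beyond the loss of genes by the filter, the cause was not tested. DESeq2 gave some members no adjusted p, and these were not counted as lost.

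Replicate numbers did not pair the samples: correlations of replicate differences between conditions ran from -0.16 to 0.11 over 28 pairs, with 1 over 0.1. With the replicate block, 1 gene was called at any time in wt MET cells, 1 in the difference between the lines and 1 in the additive model. The calls lost were LINC00672 at any time in wt MET cells (adjusted p = 0.0597 in edgeR), LINC00431 in the difference (0.0537) and LINC01145 in the additive model (0.0523).

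With each library left out in turn, calls ranged from 0 to 2 in wt MET cells at 3 h and at 6 h. In MET∆14 cells they ranged from 0 to 4 at 3 h, 3 to 4 at 6 h and 0 to 1 at 12 h. At any time they ranged from 0 to 3 in wt MET and 3 to 6 in MET∆14 cells. They ranged from 1 to 4 in the difference, 1 to 3 in the difference at 6 h and 1 to 2 in the additive model. The median log2 fold change ranged from -0.086 to 0.042, -0.088 to 0.15 and -0.052 to 0.27 in wt MET cells at 3, 6 and 12 h. In MET∆14 cells it ranged from -0.48 to -0.20, -0.84 to -0.59 and -0.30 to 0.31 at these times. With 10 counts in every library the median was -0.0067 in wt MET cells at 3 h and -0.71 in MET∆14 cells at 6 h. With a total of at least 800 counts it was -0.94 in the latter, and with at least 16 it was 0.082 in wt MET cells at 12 h. No median was available for SNHG genes. Depth limits the genes under 1 CPM, and in 6 of 54 comparisons, 3 of them called, the fitted SE was below counting error.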
